A study of Ovis aries with 16 samples.

Results

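The livers of adult female Suffolk sheep exposed to bisphenol A (BPA) before birth were compared with the livers of control sheep, using 8 of the 16 RNA sequencing libraries of the series. All libraries labelled liver were included, 4 with the treatment BPA and 4 with the treatment C. Mothers of the BPA group received BPA in corn oil under the skin at 0.5 mg/kg per day between days 30 and 90 of gestation, a dose that gave about 2.6 ng/ml BPA in the umbilical artery. Mothers of the control group received corn oil on the same days. The daughters were about 21 months old at sampling and had been fasted for 48 hours. Both groups had received 2 injections of 10 mg prostaglandin F2α, 11 days apart, and tissue was taken 24 hours after the second, in the late follicular phase. The sample was the tip of the left liver lobe, snap frozen, with RNA depleted of ribosomal RNA before a low-input library preparation. Each library came from a separate animal, so p-values measure the spread between these animals together with that between their tissue pieces and libraries. Values are normalized read counts, and where 8 values follow each other they are in the order control 902, 908, 924, 928 and then BPA 910, 918, 977, 984.

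BPA is a plasticizer with weak oestrogen-like activity that crosses the placenta. The liver is built mostly of hepatocytes, which make plasma proteins, bile and urea and handle glucose, fat and foreign compounds along a gradient from portal vein to central vein. Between the hepatocyte plates run sinusoids lined by a fenestrated endothelium and patrolled by Kupffer cells, the resident macrophages, while bile ducts, portal fibroblasts and larger vessels sit in the portal tracts. A frozen piece of liver mixes all of these, so fewer cells of a type and less RNA per cell cannot be told apart.

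The library labelled control liver 902 went against its label. It held 10447 ALB counts, the serum albumin transcript, with 677303, 739640 and 702068 in the other 3 controls, 548171 in BPA 910 and 91332 to 197662 in BPA 918, 977 and 984. Genes of the ruminant trophoblast, the outer cell layer of the conceptus, were abundant in it. PAG3 and PAG6, pregnancy-associated glycoproteins secreted by the placenta, measured 7456 and 5451 in the library labelled 902 and at most 6.19 and 2.75 in controls 908, 924 and 928 and BPA 910. PRP2, a placental prolactin-related protein, measured 893, with at most 1.38 in those 4 libraries. Transcription factors of trophoblast were present with them: HAND1 at 850, GCM1 at 271 and CDX2 at 139. All 17 of 17 trophoblast genes examined were highest in the library labelled 902. PAG and PRP genes have near-identical copies, between which reads may have been split.

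The same library carried transcripts of the uterus. SERPINA14, the uterine serpin of ruminants, measured 16735, with 1.42 to 17.9 in controls 908, 924 and 928 and BPA 910. The progesterone receptor gene PGR was at 300, the oxytocin receptor gene OXTR at 334 and the posterior patterning gene HOXA11 at 360, each under 4 in those 4 libraries. All 9 of 9 uterus genes were highest in the library labelled 902. Summed, the trophoblast list came to 19083 and the uterus list to 18715, with 7.11 to 18.6 and 7.11 to 23.4 in controls 908, 924 and 928 and BPA 910. BPA 918, 977 and 984 held smaller amounts of both, with trophoblast sums of 223, 97.3 and 411 and uterus sums of 150, 84.8 and 404. In the 8 muscle libraries of the same animals, SERPINA14 ranged from 12.3 to 104 and PAG3 from 3.65 to 31.1. The uterus list summed to 558 to 709 in muscle, above BPA 918, 977 and 984, with HOXA10 at 421 to 543 and PGR at 56.5 to 76.0 there. The trophoblast list summed to 15.6 to 86.4 in muscle. The labels describe cycling ewes, and where these transcripts came from was not tested. Both lists were chosen after the values were seen.

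**Figure D1:**
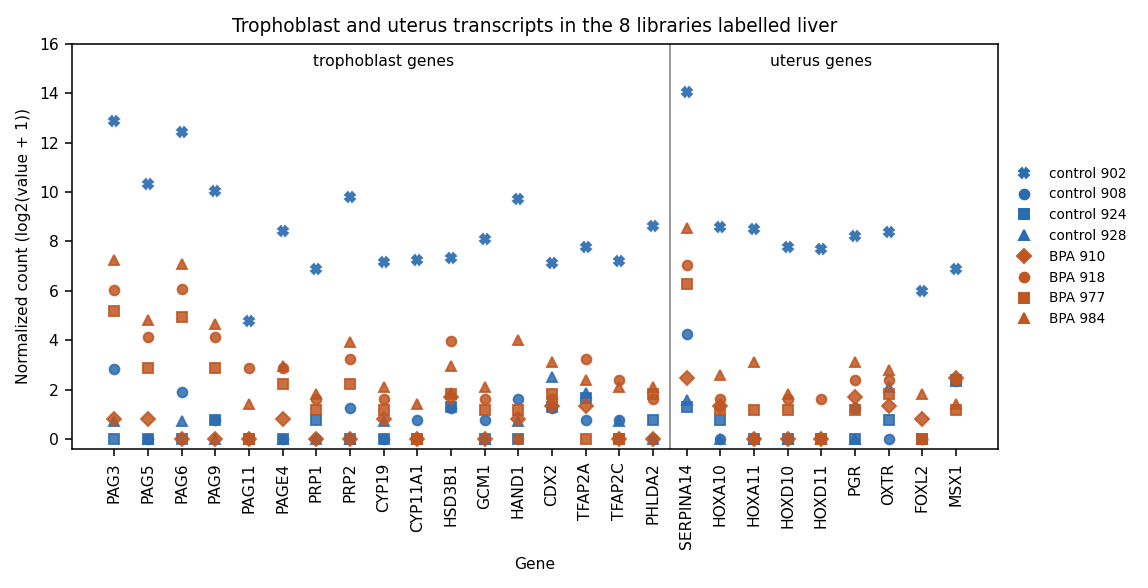
Trophoblast and uterus genes in the 8 libraries labelled liver. Each symbol is 1 library, controls in blue and BPA in orange, and the vertical axis is the normalized count on the log2(value + 1) scale. The library labelled control 902 is the highest for all 17 trophoblast and all 9 uterus genes.

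The other livers fell into 2 sets that cut across the groups. Controls 908, 924 and 928 and BPA 910 held 17.92 to 19.28 M recovered reads (M, in units of 1e6), with 36.5% to 42.0% of the counts in their 100 most abundant genes. BPA 918, 977 and 984 held 4.66 to 10.64 M and 20.1% to 22.9%, and the library labelled 902 held 4.39 M and 18.6%. A list level is given below as the median over its genes of the log2 difference from the mean of the 8 livers. Hepatocyte markers (14 genes) were at 1.20 to 1.26 in controls 908, 924 and 928 and 1.32 in BPA 910, at -0.30, -0.74 and -0.85 in BPA 918, 977 and 984, and at -2.94 in the library labelled 902. Skeletal muscle genes (6 tested) were at 1.76 in BPA 918, 2.02 in BPA 984 and 1.30 in the library labelled 902, with -1.47 to -0.03 in the other 5. Of 15689 genes tested, those at least 4-fold above every other liver numbered 871 in the library labelled 902, 77 in BPA 918 and 2 to 10 in each of the rest. The tested genes averaged at least 10 over all 8 livers, so a gene high in 1 library could pass through it. Of them, 15202 also passed without the library labelled 902, so part of the 871 may follow from this filter. Results are therefore given for all 8 livers and, where they differ, without the library labelled 902 or BPA 910. What part these differences between libraries play in the group comparison was not tested.

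**Figure D2:**
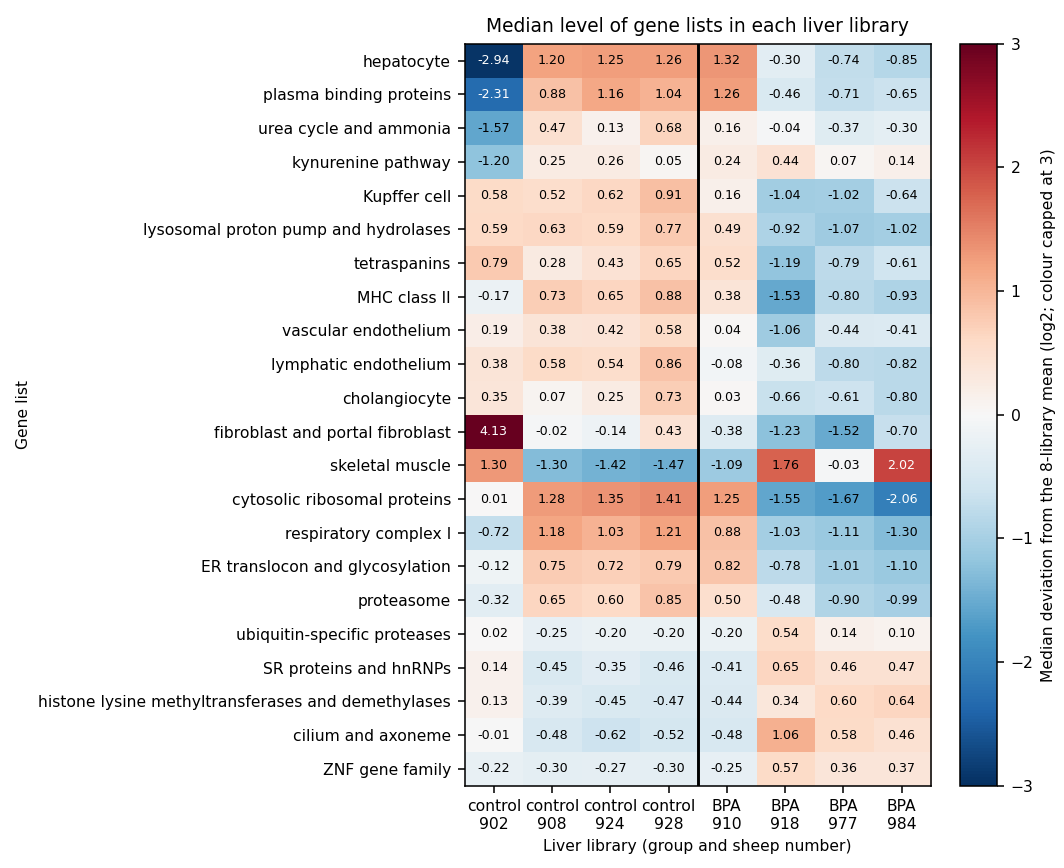
Level of 22 gene lists and families in each of the 8 liver libraries, as the median log2 deviation of a list's genes from the mean of the 8 libraries (red higher, blue lower, colour capped at 3). A vertical line separates the 4 controls from the 4 BPA livers. BPA 910 resembles controls 908, 924 and 928 in the ribosomal protein row (1.25, with 1.28 to 1.41), while the library labelled 902 stands apart in the hepatocyte (-2.94) and fibroblast (4.13) rows.

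Of 15689 genes tested, limma called 0 at an adjusted p of 0.05 (percent called 0), with a smallest adjusted p of 0.256 and 2838 genes at an unadjusted p under 0.05. edgeR called 0, with 2844 at an unadjusted p under 0.05, and DESeq2 called 137 higher in BPA (0.873%) and 53 lower (0.338%). In 569 genes (3.63%) all 4 BPA livers lay above all 4 controls, and in 625 (3.98%) below them. Estimates were higher in BPA for 7740 genes and lower for 7949, with a median log2 difference of -0.01. Without the library labelled 902 limma called 0 of 15283, with 4641 at an unadjusted p under 0.05, and the groups did not overlap in 1541 genes higher (10.1%) and 2027 lower (13.3%). Without BPA 910 limma called 1155 of 15741 higher (7.34%) and 1440 lower (9.15%). Without both it called 3007 of 15296 higher (19.7%) and 3587 lower (23.5%). These 2 libraries were left out for how they sit among the others, so the counts without them describe the remaining livers and are no separate test.

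Of the 20 lower genes with the smallest p among those without overlap, 3 are given first. CDA, the cytidine deaminase of pyrimidine salvage, measured 315, 393, 489 and 457 in controls and 136, 102, 141 and 116 in BPA livers. CDKN1A, the cyclin-dependent kinase inhibitor p21, measured 352, 526, 287 and 284 in controls and 141, 83.3, 52.4 and 88.2 in BPA livers. COPS9, a small subunit of the COP9 signalosome, measured 79.1, 160, 151 and 210 in controls and 28.3, 43.7, 32.4 and 29.4 in BPA livers. The groups did not overlap in these 3 genes: BPA 910 was within the range of the other BPA livers for CDA, above it for CDKN1A and below it for COPS9. The log2 differences were -1.72 (SE 0.262) for CDA, -2.02 (SE 0.359) for CDKN1A and -2.07 (SE 0.363) for COPS9, each with a limma adjusted p of 0.256. On this log2(value + 1) scale the change of low genes is understated.

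Of the same 20 genes, 4 are known from the vessel wall or from transport. LYVE1, a hyaluronan receptor of lymphatic and sinusoidal endothelium, measured 673, 372, 394 and 639 in controls and 166, 79.1, 41.2 and 68.9 in BPA livers. MMRN1, which encodes multimerin 1 of platelets and lymphatic endothelium, measured 22.6, 22.02, 19.2 and 37.6 in controls and 6.11, 2.08, 6.24 and 2.52 in BPA livers. In BPA livers 1 read was worth 0.764 to 2.08 counts, so these MMRN1 values rest on few reads. SLCO2A1, the prostaglandin transporter, measured 2286, 1470, 1158 and 620 in controls and 235, 291, 378 and 290 in BPA livers. BPA 910 was within the range of the other BPA livers for MMRN1, above it for LYVE1 and the lowest of all for SLCO2A1. PODXL, a sialomucin of endothelium, measured 347, 182, 241 and 272 in controls and 112, 37.5, 49.9 and 75.6 in BPA livers.

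The remaining lower genes selected by p had various roles. FCER1G, the signalling chain of Fc receptors, measured 286, 178, 186 and 202 in controls and 120, 18.7, 31.2 and 37.8 in BPA livers. C3AR1, the receptor of the complement fragment C3a, measured 115, 43.3, 76.8 and 81.9 in controls and 22.2, 29.1, 12.5 and 11.8 in BPA livers. TUBB, a beta-tubulin, measured 556, 427, 279 and 432 in controls and 211, 43.7, 41.2 and 33.6 in BPA livers. For FCER1G and TUBB, BPA 910 was several-fold above the other BPA livers, though below every control. Matrix genes in this set were MGP, the matrix Gla protein (log2 difference -2.72), MFAP4, a microfibril-associated protein (-2.85), LOXL4, a lysyl oxidase (-1.76), and MMP2, a gelatinase (-1.59). The set also held GPC1, a cell-surface glypican (-1.69), RDH11, a retinol dehydrogenase (-1.33), and SRXN1, which reactivates peroxiredoxins (-1.73). PLS1 and PDLIM1, both of the actin cytoskeleton, stood at -1.58 and -1.72, and KIAA0040 at -1.68. MGP measured 3117 in the library labelled 902 and 670, 757 and 942 in the other controls, against 580 in BPA 910 and 103 to 122 in the other BPA livers. The fibroblast list, which holds MFAP4, was at a level of 4.13 in the library labelled 902. Its median was -2.05 with all livers and -1.13 without that library.

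Of the 20 higher genes with the smallest p among those without overlap, 3 are given first. MAP2, a microtubule-associated protein known best from neurons, measured 141, 86.7, 272 and 98.7 in controls and 372, 820, 1034 and 961 in BPA livers. AFMID, the formamidase that yields kynurenine from tryptophan, measured 773, 639, 810 and 554 in controls and 1172, 2804, 2676 and 2711 in BPA livers. GRB14, an adaptor that restrains the insulin receptor, measured 234, 232, 176 and 271 in controls and 444, 2232, 657 and 1118 in BPA livers. All 4 BPA livers lay above all controls in each, with BPA 910 the lowest of the 4. The log2 differences were 2.45 (SE 0.448), 1.69 (SE 0.351) and 2.03 (SE 0.463), each with a limma adjusted p of 0.256.

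SPEF2, ENO4 and BBS12, also among the 20, are known from cilia or sperm tails. SPEF2, a protein of the ciliary central apparatus, measured 320, 130, 221 and 297 in controls and 395, 3140, 1466 and 1814 in BPA livers. ENO4, an enolase of the sperm tail, measured 107, 55.7, 57.6 and 63.1 in controls and 152, 329, 655 and 656 in BPA livers. BBS12, a chaperonin-like protein of the Bardet-Biedl group, measured 28.3, 35.1, 37.0 and 55.0 in controls and 91.7, 99.9, 93.6 and 108 in BPA livers. In BBS12 BPA 910 was level with the other BPA livers, whereas in SPEF2 it was much closer to the controls. PGLYRP1, a peptidoglycan recognition protein of the innate response, measured 7.54, 9.63, 12.1 and 8.05 in controls and 27.5, 77.0, 41.2 and 34.4 in BPA livers.

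The other 13 higher genes of this set had diverse roles. They included CHRD, the BMP antagonist chordin (log2 difference 1.46), PALB2, the partner of BRCA2 in DNA repair (1.74), KCNT2, a potassium channel (1.23), and CADPS2, a factor of dense-core vesicle release (1.06). CADPS2 had little spread, with 318, 398, 341 and 354 in controls and 634, 743, 818 and 743 in BPA livers. CHRD measured 876, 1403, 1275 and 950 in controls and 2126, 2401, 3975 and 4163 in BPA livers. DSG3, a desmosomal cadherin, was at 1.72, CTNNA3, an alpha-catenin, at 1.61, and NUP210L, a nucleoporin-like gene, at 1.80. ARMH1 (2.27), MCTP2 (1.32), C4H7orf31 (2.21), TTC6 (2.07), LEKR1 (2.42) and CCDC17 (1.12) made up the rest. DESeq2 called all 20 higher genes (background 0.873%) and 18 of the 20 lower ones (background 0.338%). The exceptions in DESeq2 were SRXN1 (adjusted p = 0.0565) and MMP2 (adjusted p = 0.0598). Without BPA 910 limma called all 40, with adjusted p from 0.00338 to 0.0266 (backgrounds 7.34% higher and 9.15% lower). Without the library labelled 902 limma called 0 of them, with an adjusted p of 0.131. The 40 were chosen by small p and lack of overlap in these same livers, so these calls are no separate support.

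**Figure D3:**
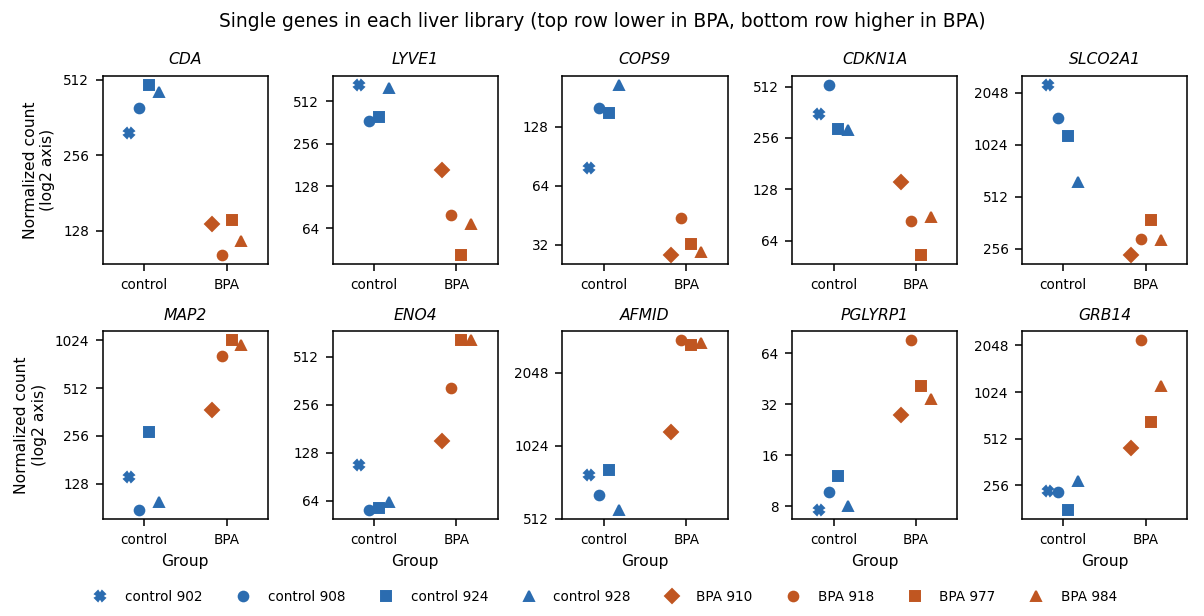
Normalized counts of 5 genes lower (top) and 5 genes higher (bottom) in BPA livers, on a log2 axis, with 1 symbol per library. In all 10 the 4 BPA livers (orange) lie entirely below or above the 4 controls (blue), as in CDA, with 102 to 141 in BPA livers and 315 to 489 in controls.

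A stricter look asked for which genes the nearest BPA liver and the nearest control were at least 2-fold apart, a threshold chosen after the values were seen. Of 15689 genes, 2 were that far higher (0.0127%) and 6 that far lower (0.0382%). The named ones were PGLYRP1 (gap 2.18-fold) among the higher, and MMRN1 (2.79-fold), LYVE1 (2.23-fold), CDA (2.22-fold), ADAM28 (2.14-fold) and CDKN1A (2.001-fold) among the lower. The MMRN1 gap rests on few reads in the BPA livers. Without the library labelled 902 there were 17 in each direction (0.108%). LYZ, the lysozyme gene, then had the widest gap of the lower ones (3.95-fold): it measured 87.4, 115 and 126 in controls 908, 924 and 928 and 21.4, 14.6, 12.5 and 8.40 in BPA livers. The library labelled 902 held 1.88 LYZ counts, the worth of 1 read. CYP2D6, a drug-metabolizing cytochrome P450, measured 3445, 4593 and 6355 in those controls and 1446, 510, 1527 and 1026 in BPA livers, with 145 in the library labelled 902. HEBP1, a haem-binding protein, measured 480, 618 and 490 against 227, 70.8, 77.3 and 87.4, with 188 in the library labelled 902. P450 genes have close relatives whose reads may be shared.

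Markers of endothelium had lower estimates in BPA livers. Of 20 vascular endothelial genes 18 were lower and 2 higher, with a median of -0.99 against -0.01 over all genes tested, and in 5 the groups did not overlap, all lower (background 3.98%). PLVAP, the diaphragm protein of fenestrated capillaries, measured 735, 258, 273 and 330 in controls and 196, 56.2, 63.6 and 110 in BPA livers. RAMP2, the partner of the adrenomedullin receptor, measured 224, 189, 220 and 228 in controls and 137, 10.4, 42.4 and 41.2 in BPA livers. PECAM1, the adhesion molecule of endothelial junctions, measured 724, 663, 741 and 842 in controls and 477, 321, 398 and 456 in BPA livers. BPA 910 was below every control in all 3, and in PECAM1 it lay next to BPA 984. Lymphatic endothelial genes (10 tested) had a median of -1.44, with 8 lower, and sinusoidal genes (15 tested) a median of -0.54, with 12 lower. When the library labelled 902 was left out, 8 lymphatic genes still averaged at least 10, with 7 lower and a median of -1.66. Without the library labelled 902 the vascular list was at -1.08 and 12 of its 20 genes did not overlap, all lower (background 13.3%). With BPA 910 left out, limma called 7 of the 20 lower (background 9.15%).

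Kupffer cell and monocyte genes were lower too. All 16 Kupffer cell genes had lower estimates (median -1.36, 3 not overlapping), as had 12 of 14 genes of monocytes and recruited macrophages (median -1.21, 5 not overlapping), against a background of 3.98%. The monocyte list was at 1.78 in the library labelled 902, and its median was -0.97 without it. CSF1R, the receptor for macrophage colony-stimulating factor, measured 3529, 1503, 1307 and 1943 in controls and 1109, 310, 528 and 691 in BPA livers. MRC1, the mannose receptor of sinusoidal cells and macrophages, measured 4803, 1095, 1336 and 1977 in controls and 928, 695, 490 and 732 in BPA livers. C1QC, a chain of complement C1q made by macrophages, measured 2114, 1927, 2249 and 3050 in controls and 2095, 242, 341 and 444 in BPA livers. BPA 910 was below the controls for CSF1R and MRC1 but within their range for C1QC. The iron exporter SLC40A1 likewise had BPA 910 (3010) within the controls (2327 to 3918), with 793 to 1283 in the other BPA livers. Among monocyte genes, LAPTM5 stood at -2.36, cathepsin S CTSS at -1.80 and the adaptor TYROBP at -2.52. TLR2, a sensor of bacterial lipoproteins, is in neither list. It measured 273, 55.7, 96.7 and 97.98 in controls and 48.1, 16.7, 19.96 and 31.9 in BPA livers. Toll-like receptor and inflammasome genes had 15 higher and 20 lower (median -0.18). Of these, 3 higher and 4 lower did not overlap (backgrounds 3.63% and 3.98%). When BPA 910 was left out, limma called 7 Kupffer cell and 6 monocyte genes lower (background 9.15%).

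Genes of the lysosome, the compartment where proteins and lipids are broken down, had lower estimates. Of 49 genes of the proton pump and the hydrolases 47 were lower (median -1.38), 16 of them without overlap, against a background of 3.98%. LIPA, the acid lipase of lysosomes, measured 1773, 531, 578 and 791 in controls and 477, 106, 67.4 and 129 in BPA livers. CTSC, a cathepsin that activates granule proteases, measured 2759, 1950, 1713 and 2326 in controls and 1538, 435, 371 and 535 in BPA livers. ATP6AP1, an accessory subunit of the proton pump, measured 643, 697, 673 and 751 in controls and 514, 70.8, 152 and 118 in BPA livers. BPA 910 sat just under the controls in these genes, while BPA 918, 977 and 984 sat far under them. The most abundant member, PSAP (prosaposin), measured 9437, 11652, 11524 and 12259 in controls and 10189, 1451, 2096 and 2189 in BPA livers, so that BPA 910 was among the controls. List levels were 0.59 to 0.77 in the 4 controls, 0.49 in BPA 910 and -1.07 to -0.92 in BPA 918, 977 and 984. Unlike the hepatocyte list, the library labelled 902 was level with the other controls (0.59), and without it the median was -1.37 with 25 genes not overlapping (background 13.3%). Of the 49 genes, limma called 33 lower without BPA 910 (background 9.15%).

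Tetraspanins, membrane proteins of endosomes and exosomes, were lower in all 23 tested (median -1.13, 5 not overlapping, background 3.98%). CD63, a tetraspanin of late endosomes, measured 1679, 1296, 1253 and 1491 in controls and 1232, 164, 227 and 218 in BPA livers. TSPAN7 measured 835, 617, 631 and 717 in controls and 523, 70.8, 101 and 124 in BPA livers. The list stayed at -1.15 without the library labelled 902, and without BPA 910 limma called 12 lower (background 9.15%). MHC class II genes, which present antigen to helper T cells, were lower in 8 of 9 (median -1.61, 2 not overlapping, background 3.98%). CD74, the class II invariant chain, measured 501 in the library labelled 902, 5055, 5509 and 6461 in the other controls, 4183 in BPA 910 and 179, 671 and 965 in BPA 918, 977 and 984. The groups overlapped in CD74 only through the library labelled 902, and its log2 difference was -1.88 (SE 1.03).

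Bile duct and fibroblast genes had lower estimates as well. Of 20 cholangiocyte genes 17 were lower (median -1.14, 2 not overlapping, background 3.98%), and the median was -0.97 over 19 genes without that library. KRT19, the keratin of bile ducts, measured 724, 63.99, 67.5 and 287 in controls and 31.3, 25.0, 4.99 and 33.6 in BPA livers. EPCAM, an epithelial adhesion molecule, measured 213, 23.4, 33.4 and 109 in controls and 22.2, 4.16, 4.99 and 6.72 in BPA livers. Control 928 was also high for both, the next highest after the library labelled 902. The EPCAM values of BPA 918, 977 and 984 rest on few reads. Fibroblast genes were lower in 20 of 20 (median -2.05, 7 not overlapping, background 3.98%), with a level of 4.13 in the library labelled 902 and -0.14 to 0.43 in the other controls. Without it the median was -1.13 over 17 tested genes, all 17 lower and 7 not overlapping (background 13.3%). IGFBP5, a secreted IGF-binding protein of fibroblasts, measured 3524, 1614, 954 and 675 in controls and 686, 83.3, 133 and 205 in BPA livers.

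Matrix genes split by class. COL1A1, the main chain of fibrillar collagen I, measured 43399 in the library labelled 902, 1180, 1046 and 1956 in the other controls, 1089 in BPA 910 and 385, 457 and 969 in BPA 918, 977 and 984. Over 32 collagen genes the median was -0.25, with 13 higher and 19 lower, and -0.28 without the library labelled 902. Matrix glycoproteins and proteoglycans were lower in 42 of 45 (median -1.18), and in 35 of 43 without that library (median -1.02). Matrix proteases and their inhibitors had 35 of 45 lower (median -0.66), which became 26 of 45 (median -0.23) without it. TIMP3, a metalloproteinase inhibitor, measured 15184 in the library labelled 902, 467 to 530 in the other controls and 131 to 307 in BPA livers. The groups did not overlap for TIMP3, and its log2 difference was -2.55 with that library and -1.32 without it.

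Hepatocyte genes gave different pictures with and without the library labelled 902. With all 8 livers, 11 of 14 markers were lower (median -0.37) and 0 had groups that did not overlap. Without it all 14 were lower (median -1.46), 6 without overlap (background 13.3%). ALB went from a log2 difference of -0.43 (SE 1.57) to -1.95, and TTR, the thyroxine carrier transthyretin, from -1.20 to -2.70. TTR measured 358 in the library labelled 902, 20911, 22925 and 25115 in the other controls, 21391 in BPA 910 and 1362, 2400 and 2222 in BPA 918, 977 and 984. BPA 910 was thus among those 3 controls for TTR, as it was for CYP2E1 (143589, with 110128 to 174320). Periportal genes, which serve urea and glucose production, were at -0.23 with all livers and -1.25 without the library labelled 902, whereas pericentral genes were at 0.35 and -0.10. Plasma binding proteins (23 tested) moved from -0.33 to -1.28, complement components (25) from -0.08 to -0.76, coagulation factors (28) from -0.25 to -0.69 and urea cycle genes (14) from -0.20 to -0.54.

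Single genes of secreted hepatocyte proteins had higher estimates, though lists of such proteins mostly ran the other way. Plasma binding proteins were lower in 16 of 23, with 2 higher and 0 lower not overlapping. Coagulation factors were lower in 18 of 28, with 2 higher and 1 lower not overlapping (backgrounds 3.63% higher and 3.98% lower). AFM, which encodes the vitamin E-binding protein afamin, measured 1658, 1792, 2007 and 1976 in controls and 2874, 9188, 3357 and 5057 in BPA livers, without overlap (log2 difference 1.31, SE 0.402). THPO, thrombopoietin, measured 207, 207, 203 and 187 in controls and 235, 283, 519 and 585 in BPA livers. PROZ, a vitamin K-dependent protein of coagulation, measured 769, 700, 921 and 754 in controls and 1356, 985, 1124 and 1389 in BPA livers. All 4 BPA livers lay above all controls in each of the 3, by the smallest margin in PROZ between BPA 918 and control 924. ABCA6 encodes a lipid transporter of the ABC family, not a secreted protein. It measured 1619, 1840, 2044 and 2296 in controls and 3972, 4120, 3694 and 3904 in BPA livers. BPA 910 was level with the other BPA livers in ABCA6, and DESeq2 called it (adjusted p = 0.00219).

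The kynurenine pathway turns tryptophan into NAD precursors in the liver. With all livers 14 of 17 genes were higher (median 0.40, 2 not overlapping, background 3.63%). TDO2, the liver enzyme that opens the tryptophan ring, measured 1651, 3317, 3419 and 3142 in controls and 4139, 7535, 4698 and 5763 in BPA livers. NADSYN1, the last enzyme of NAD synthesis, measured 541, 921, 759 and 636 in controls and 743, 2282, 2414 and 2484 in BPA livers. TDO2 and AFMID were the 2 members whose groups did not overlap. Without the library labelled 902 the list had 7 higher and 10 lower (median -0.02), so the balance of the list rested on that library, while TDO2 was then at 0.71 and AFMID at 1.74.

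Genes of fuel metabolism were mixed. Glycolysis was lower in 21 of 26 (median -0.94), with 6 lower (background 3.98%) and 2 higher genes (background 3.63%) not overlapping. PGAM1, a phosphoglycerate mutase, measured 931, 1195, 1075 and 1260 in controls and 860, 121, 148 and 106 in BPA livers. PFKFB1, the liver enzyme that sets fructose 2,6-bisphosphate, ran the other way with 499, 386, 559 and 557 in controls and 670, 1459, 1581 and 2018 in BPA livers. FBP2, a fructose bisphosphatase isoform best known from muscle, measured 62.2, 25.5, 66.8 and 49.7 in controls and 85.6, 298, 332 and 138 in BPA livers. Gluconeogenesis and glycogen genes were balanced, 14 higher and 14 lower (median -0.04). Fatty acid oxidation and ketogenesis had 20 of 27 lower (median -0.48, and -1.01 without the library labelled 902) and 0 genes without overlap. Fatty acid and triglyceride synthesis had 18 of 27 lower (median -0.29). SCD, the stearoyl-CoA desaturase, measured 1707, 325, 341 and 387 in controls and 178, 139, 147 and 177 in BPA livers, and its BPA values, 910 included, lay close together.

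Nuclear receptors, the ligand-activated regulators of hepatic metabolism, were balanced at 20 higher and 20 lower (median 0.01). NR1H4, the bile acid receptor FXR, measured 339, 594, 763 and 555 in controls and 696, 3304, 1337 and 1460 in BPA livers. NR1I3, the constitutive androstane receptor, measured 281, 292, 506 and 544 in controls and 543, 962, 652 and 1353 in BPA livers. In both, BPA 910 fell within the controls. Clock genes had 17 of 26 higher (median 0.35), among them ARNTL, the BMAL1 partner of CLOCK, at 332, 264, 217 and 283 in controls and 406, 610, 414 and 703 in BPA livers, without overlap.

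Lists for 3 hormonal axes were looked at next. Oestrogen handling and response genes were lower in 18 of 26 (median -0.27), with 1 gene not overlapping, higher (background 3.63%). Without the library labelled 902 the median was -0.55. Then 6 lower and 2 higher of 25 genes did not overlap (backgrounds 13.3% and 10.1%). ESR1, the oestrogen receptor alpha, measured 4012, 2178, 2895 and 2372 in controls and 2974, 1062, 1432 and 1504 in BPA livers, with a log2 difference of -0.79 (SE 0.387). BPA 910 was the exception in its group for ESR1, above 3 of the 4 controls. Growth hormone and IGF genes had 11 higher and 15 lower (median -0.15), 4 of the lower without overlap (background 3.98%). With the library labelled 902 left out, their median was -0.49. Then 5 lower and 1 higher of 23 did not overlap (backgrounds 13.3% and 10.1%). IGFBP7, an IGF-binding protein of vessels, measured 1475, 1160, 970 and 1096 in controls and 965, 214, 388 and 410 in BPA livers, BPA 910 lying just under the lowest control. STC2, a stanniocalcin that restrains IGF release, measured 67.8, 20.6, 22.7 and 12.1 in controls and 8.41, 6.25, 7.49 and 5.88 in BPA livers. These BPA values rest on few reads. Prostaglandin and leukotriene genes were lower in 19 of 26 (median -0.54, and -0.36 over 23 genes without the library labelled 902). With all livers, SLCO2A1 and ALOX5AP, the activator of 5-lipoxygenase, were the 2 without overlap (background 3.98%).

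Genes of protein making and energy supply also had lower estimates. Cytosolic ribosomal proteins were lower in 75 of 75 (median -2.02), yet 0 had groups that did not overlap. RPS2, a small-subunit protein, measured 3718, 11695, 11749 and 12743 in controls and 11191, 985, 2004 and 1179 in BPA livers. Without BPA 910 limma called 73 of the 75 lower (background 9.15%), and without the library labelled 902 it called 0, with 37 not overlapping (background 13.3%). Complex I of the respiratory chain was lower in 36 of 37 (median -1.37) and ATP synthase in 14 of 15 (median -1.62), both with 0 genes without overlap. ATP5F1B, the catalytic subunit of ATP synthase, measured 1321, 6847, 5588 and 6381 in controls and 4708, 849, 655 and 538 in BPA livers. NDUFA1, a complex I subunit, measured 52.8, 208, 186 and 173 in controls and 165, 12.5, 7.49 and 10.1 in BPA livers. In NDUFA1 and ATP5F1B BPA 910 was above the library labelled 902 and below the other 3 controls.

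Genes of the secretory pathway and the proteasome had lower estimates too. The ER translocon and glycosylation genes, through which secreted proteins enter the pathway, were lower in 32 of 33 (median -1.01), with 2 lower and 1 higher not overlapping, near the backgrounds of 3.98% and 3.63%. SEC11C, a signal peptidase subunit, measured 279, 440, 409 and 517 in controls and 359, 54.1, 63.6 and 52.1 in BPA livers. SRP14, of the signal recognition particle, measured 175, 176, 159 and 166 in controls and 154, 35.4, 34.9 and 32.8 in BPA livers. BPA 910 missed the control range of SRP14 by a small margin, so the gene counts as not overlapping although 3 libraries carry the difference. The proteasome was lower in 38 of 38 (median -0.87), 1 of them, PSMD10, without overlap (background 3.98%). Ubiquitin-specific proteases, which remove ubiquitin, ran the other way with 33 of 42 higher (median 0.31). Yet 0 higher and 1 lower did not overlap (backgrounds 3.63% and 3.98%). Their level in BPA 910 was -0.20, with -0.25 to 0.02 in controls. Actin cytoskeleton genes were lower in 44 of 46 (median -0.94, 9 not overlapping, background 3.98%). Leaving out the library labelled 902 gave 39 lower and 7 higher of 46 (median -0.68). Then 11 lower and 1 higher did not overlap (backgrounds 13.3% and 10.1%). ACTB measured 30233, 15233, 17407 and 17291 in controls and 16472, 2122, 3933 and 3671 in BPA livers, so the library labelled 902 was the highest control.

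**Figure D4:**
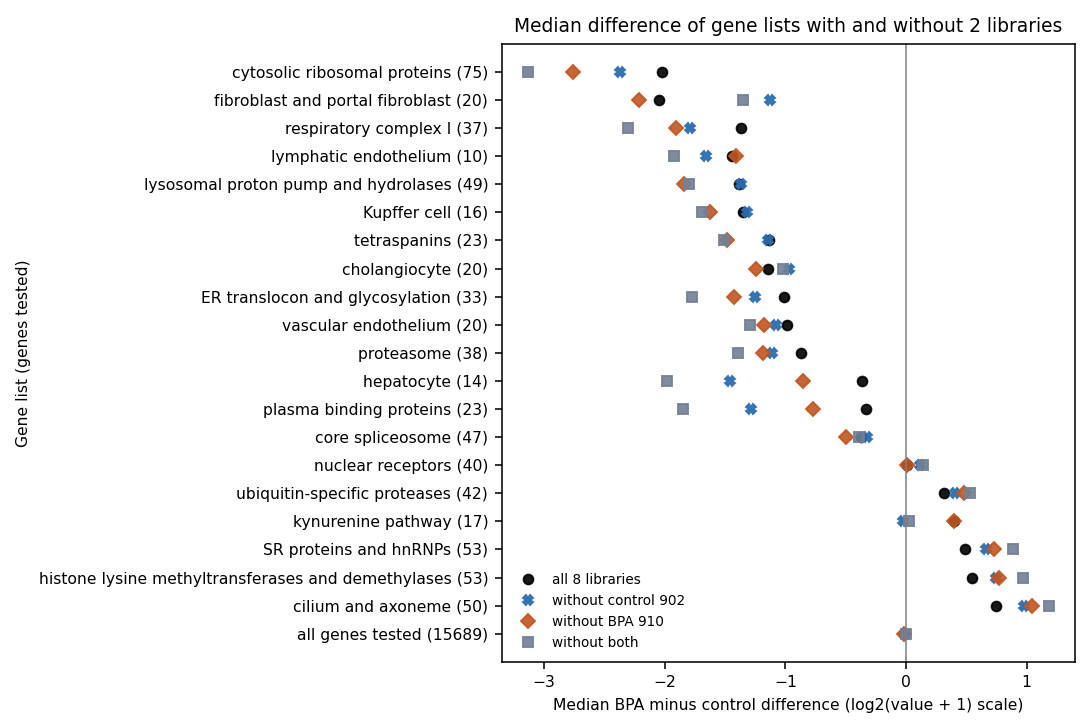
Median BPA minus control difference of 20 gene lists and of all genes tested, on the log2(value + 1) scale, with all 8 livers (black), without the library labelled 902 (blue), without BPA 910 (orange) and without both (grey). The number of genes tested stands in brackets, for all 8 livers. Cytosolic ribosomal proteins run from -2.02 with all livers to -3.14 without both, hepatocyte markers from -0.37 to -1.98, and the lysosomal list from -1.38 to -1.80.

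Lists of nuclear regulators and of the cilium had higher estimates in BPA livers. Histone lysine methyltransferases and demethylases were higher in 50 of 53 (median 0.55, 3 higher and 1 lower not overlapping, backgrounds 3.63% and 3.98%). Histone acetylation genes were higher in 38 of 44 (median 0.42), with 3 higher and 0 lower not overlapping. Chromatin remodellers were higher in 31 of 40 (median 0.41), yet 0 higher and 2 lower did not overlap. BPA 910 was level with controls 908, 924 and 928 in these lists, at -0.44, -0.21 and -0.37. NSD1, a methyltransferase of histone H3, measured 2261, 1919, 1914 and 1834 in controls and 2021, 5782, 4410 and 4092 in BPA livers. SETDB1, which methylates H3 at silenced chromatin, measured 942, 472, 528 and 507 in controls and 539, 1809, 1504 and 1808 in BPA livers. In both, BPA 910 was within the controls, and the library labelled 902 was the highest control. Splicing genes divided. SR proteins and hnRNPs, which choose splice sites, were higher in 42 of 53 (median 0.49), with 0 higher and 1 lower not overlapping. Their level in BPA 910 was -0.41, with -0.46 to -0.35 in controls 908, 924 and 928. The core spliceosome had 30 of 47 lower (median -0.38), with 0 higher and 1 lower not overlapping. SRSF5, an SR protein, measured 2431, 1365, 1593 and 1270 in controls and 1542, 4955, 5889 and 7772 in BPA livers, and SNRPD2, a core protein, 155, 238, 235 and 260 in controls and 213, 58.3, 69.9 and 54.6 in BPA livers. Without BPA 910 limma called 11 of 53 histone methylation genes higher and 12 of 53 SR and hnRNP genes higher and 3 lower (backgrounds 7.34% and 9.15%).

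Cilium and axoneme genes were higher in 42 of 50 (median 0.75), 4 of them without overlap (background 3.63%) and 0 lower ones. CFAP46, a protein of the ciliary central apparatus, measured 301, 115, 257 and 295 in controls and 310, 947, 1128 and 1541 in BPA livers. WDR19, a component of intraflagellar transport, measured 138, 73.6, 89.6 and 112 in controls and 174, 300, 168 and 179 in BPA livers. CEP290, of the ciliary transition zone, measured 381, 156, 218 and 170 in controls and 241, 3208, 831 and 979 in BPA livers, where the library labelled 902 overlapped BPA 910. BPA 918 was the highest library for CEP290, as it was for the list (1.06, with 0.58 and 0.46 in BPA 977 and 984 and -0.48 in BPA 910). Without the library labelled 902 the list was at 0.98 with 13 of 48 higher without overlap (background 10.1%), and without BPA 910 limma called 17 of 50 higher (background 7.34%).

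Families of gene symbols, formed from the letters before the first digit, had similar poles to the lists. Many families hold the same genes as the lists, in the same 8 libraries, so they are no separate support. Of 224 families with at least 8 tested members, 111 had a median above 0. The lowest medians belonged to ribosomal proteins (RPL -1.95, RPS -1.84, the latter holding some kinases of the RPS6K group), complex I subunits (NDUFA -1.62, NDUFB -1.503, NDUFS -1.004) and proteasome beta subunits (PSMB -1.46). Then came the ER membrane complex (EMC -1.17), the vesicle cargo receptors TMED (-1.10), galectins (LGALS -1.09) and the WNT ligands (-1.05). WNT stood at 3.81 in the library labelled 902 and between -1.08 and -0.21 in the other 7, and without that library 5 of its genes were tested, with a median of -0.64. The highest medians belonged to axonemal dynein heavy chains (DNAH 0.98), centrosomal proteins (CEP 0.87), the NEK kinases (0.77), SR splicing factors (SRSF 0.68), intraflagellar transport (IFT 0.65), CHD remodellers (0.65), EFCAB (0.62), the KMT methyltransferases (0.60), KIAA (0.60) and the exocyst (EXOC 0.57). CEP genes were higher in 33 of 35.

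Zinc finger genes named ZNF were the largest family described, with 249 tested. Estimates were higher for 199 and lower for 50 (median 0.54), and the groups did not overlap in 19 higher (background 3.63%) and 5 lower (background 3.98%). ZNF839 measured 198, 186, 218 and 181 in controls and 220, 623, 470 and 547 in BPA livers. ZNF185, a LIM domain protein of the actin cytoskeleton despite its symbol, measured 18.8, 15.8, 20.6 and 8.05 in controls and 61.1, 54.1, 29.9 and 37.0 in BPA livers, with BPA 910 the highest of all. ZNF703, a corepressor, ran the other way with 220, 97.0, 86.7 and 81.2 in controls and 61.9, 18.7, 38.7 and 31.1 in BPA livers. Once BPA 910 was left out, limma called 46 ZNF genes higher (background 7.34%) and 5 lower (background 9.15%). Family levels were -0.30 to -0.22 in the 4 controls, -0.25 in BPA 910 and 0.36 to 0.57 in BPA 918, 977 and 984.

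**Figure D5:**
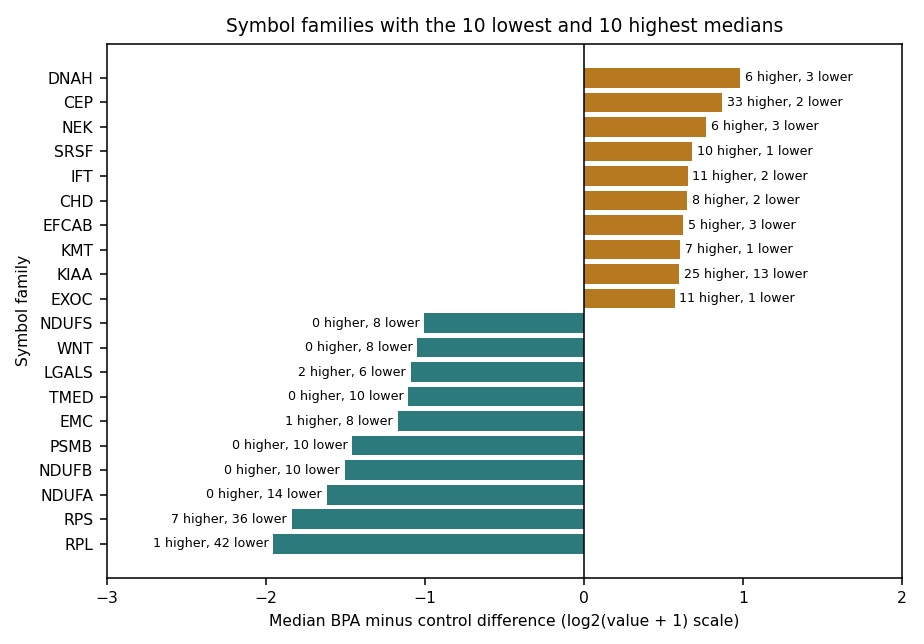
The 10 lowest and 10 highest symbol families by median BPA minus control difference (log2(value + 1) scale, all 8 livers), with the number of members higher and lower in BPA livers beside each bar. RPL is the lowest at -1.95 and DNAH the highest at 0.98.

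Over the 118 lists with tested members, 92 medians were below 0 and 26 above, beside a median of -0.01 over all genes. The lists as chosen were thus weighted toward lower estimates. Toll-like receptor and inflammasome genes (15 higher, 20 lower, median -0.18), B and plasma cell genes (4 and 4, -0.12), insulin and glucagon signalling (18 and 20, -0.02) and interferon-stimulated genes (19 and 14, 0.10) lay nearer to the median over all genes. T and NK cell genes (6 higher, 12 lower) were at -0.42, and at -0.66 without the library labelled 902. Then 5 lower and 1 higher of 18 did not overlap (backgrounds 13.3% and 10.1%). CD163, MALAT1 and NEAT1 were not analysed here.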

How the data were processed

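Total RNA from 8 livers was sequenced after ribosomal RNA depletion, per the labels' protocols. Trimmomatic, FastQC and DESeq2 1.24.0 were used, per the submitters' processing notes; the sources used here do not name the aligner, counter, strandedness, annotation or build. The deposited signal values are normalized counts, made by the authors over both tissues together. Every liver value was a whole multiple of 1 step per library (tolerance 0.1 read), which gave back 4.39 to 19.28 M reads.

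Genes averaging 10 or more across the 8 livers entered a fit of log2(value + 1) by limma 3.58.1 in R 4.3.3, with an intensity trend and Benjamini-Hochberg adjustment, threshold 0.05. Recovered reads went to DESeq2 1.42.0 and to the quasi-likelihood test of edgeR 4.0.16. The code was tested on simulated data. Alternatives were pseudocount 10, mean minimums of 0 and 50, TMM scaling, quality weights and leaving out libraries.

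Named genes were the 20 per direction with the smallest p among those whose groups did not overlap, and for each list or family up to 4 members of smallest p and 2 of highest mean. LYZ, CYP2D6, HEBP1, ADAM28 and the trophoblast, uterus and acute phase genes were chosen after their values were seen. The comparison and all lists were chosen with earlier results of these data known. Of 28524 names, 22250 were found in RefSeq, and no sequence is shown.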

Additional observations from a re-analysis of the deposited data

Results flagged for a closer look

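Looked at were 188 groups of 4 livers (library measures, list levels and single genes). In 37 of them 1 library lay far from the other 3, by Dixon's ratio of gap to range. Chance alone marks about 1 in 20 of groups that were not selected. The single genes were selected by small p and lack of overlap, and the lists with earlier results known. That rate is therefore no fair comparison for these groups. Many of these groups share genes and libraries, so they are not separate events.

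The library labelled control 902 stood apart from the other controls in 4.39 M reads and in 18.6% of counts in the 100 most abundant genes. Its levels were low for hepatocyte markers (-2.94), plasma binding proteins (-2.31), complement (-2.10), fatty acid oxidation (-1.85), coagulation (-1.81), T and NK cell genes (-1.38), the kynurenine pathway (-1.20) and gluconeogenesis (-0.85). They were also low for complex I (-0.72), ATP synthase (-0.70), the ER translocon (-0.12) and cytosolic ribosomal proteins (0.01113, with 1.28 to 1.41 in the other controls). They were high for fibroblast genes (4.13), matrix proteases (2.05), matrix glycoproteins (1.90), collagens (1.54) and skeletal muscle genes (1.30). Smaller upward deviations were seen for CEP genes (0.35), chromatin remodellers (0.22), histone methylation (0.13) and histone acetylation (-0.02559, with -0.24 to -0.22 in the other controls). For single genes, CTNNA3 was low in that library (4.96 on the log2 scale), and TTC6 was low in control 908 (4.39).

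BPA 910 stood apart from the other BPA livers in its share of counts in the 100 most abundant genes (42.0%). Its levels were high for plasma binding proteins (1.26), cytosolic ribosomal proteins (1.25), complex I (0.88), the ER translocon (0.82) and the lysosome (0.49). On the log2 scale it was high for TUBB (7.73) and MGP (9.18) and low for AFMID (10.2), C4H7orf31 (4.38) and CTNNA3 (6.51). BPA 918 was low for fatty acid and triglyceride synthesis (-0.47). What sets these libraries apart was not tested.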

How the results depend on the processing

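The number of genes called was 0 with limma, with limma under pseudocount 10, other mean minimums or TMM scaling, and with edgeR. It was 190 with DESeq2, 9588 with limma quality weights and 6594 without both the library labelled 902 and BPA 910. The quality weights were estimated from these same values: 0.113 for the library labelled 902, 0.167 for BPA 910 and 0.215 for BPA 918. The other livers had weights of 1.694 to 5.565, so the calls with weights are no separate test. Leaving out 1 library gave 0 to 2595 calls, above 0 only without BPA 910. Genes without overlap numbered 1194, 8874 without both, and 1340 to 5211 without 1 library, the highest being 3568 without the library labelled 902 and 5211 without BPA 910. With fewer libraries, groups more easily lie apart, so part of each rise follows from leaving libraries out. Without 1 library ALB ranged from -1.95 (without the library labelled 902) to 0.10, against -0.43, and it turned to between 0.06 and 0.10 without control 908, 924 or 928, because the library labelled 902 then weighs more among fewer controls. No other named gene changed direction. No paired analysis was possible because each animal gave 1 liver and belongs to 1 group. Libraries of 4.39 to 7.27 M reads limit the precision for low genes.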

Other observations

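BPA 910 was the highest liver for 10 of 11 acute phase genes, a list made after the values were seen. ORM1, an acute phase glycoprotein, measured 71285 in it and 741 to 11870 in the other 7 livers. FGB, a fibrinogen chain, measured 222157, with 87012 to 102863 in controls 908, 924 and 928. SOCS3, a feedback inhibitor of cytokine signalling, measured 1391, with 156 to 417 in the other 7, and the exception on the list was CRP, highest in BPA 918 (41.6).

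Interferon-stimulated genes were highest in control 928 (0.68) and BPA 910 (0.52), and between -0.57 and 0.33 in the other 6 livers.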
